A study of Mus musculus with 8 samples.

Results

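The genes of interleukin 2 (IL-2) and of the chains that make up its receptor were followed across mice that lack T-bet, STAT6 or both. They were chosen by symbol, and all 4 of them (Il2, Il2ra, Il2rb and Il2rg) were among the 11841 gene symbols of the deposited expression table, each on 1 line. RNA came from CD4+ T cells carrying CD44, a marker of earlier contact with antigen, taken from skin-draining lymph nodes of BALB/cAJcl mice. All cells, WT included, were given PMA with ionomycin for 2 h, a pair of drugs that bypasses the T cell receptor. The genotypes were T-bet-/- (called T-bet-null), STAT6-/- (STAT6-null), T-bet-/- STAT6-/- (double-null) and wild type (WT), with 2 libraries each and 8 in all. The labels speak of T-bet-/- and STAT6-/- mice and do not say which exons were removed, and the sources used here give no sex, age or pooling of animals.

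IL-2 is the growth factor that activated helper T cells secrete within hours, and it acts on the same cells and their neighbours. Il2rb (CD122) and Il2rg (CD132, the common gamma chain) carry the signal through JAK1, JAK3 and STAT5. Il2ra (CD25) has no signalling tail of its own but raises the affinity of the complex, is itself induced by activation and by STAT5, and is held high on regulatory T cells. The common gamma chain also serves the receptors of IL-4, IL-7, IL-9, IL-15 and IL-21. T-bet, the Th1 factor encoded by Tbx21, is known to restrain Il2 transcription, and STAT6 carries the signal of IL-4.

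The genes lie apart in the mouse genome (mm10, counted from 1). Il2 is on chromosome 3 at 37120713-37125954, minus strand, with 4 exons and a spliced length of 1144 bases. Il2ra is on chromosome 2 at 11642792-11693194, plus strand, with 8 exons and 4412 bases. Il2rb is on chromosome 15 at 78479256-78511621, minus strand, with 10 exons and 4194 bases, and Il2rg is on chromosome X at 101264385-101268255, minus strand, with 8 exons and 1670 bases.

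Il2 and Il2ra were higher in all 3 mutants, while Il2rg did not pass a test in any. Promoter sequences are shown for these 3 genes, the ones found in the promoter set used. Each is the RefSeq sequence of build GRCm38.p6 (the assembly of mm10), 250 bases before to 50 after the annotated start, read 5′ to 3′ on the gene's strand. They are chr3:37125905-37126204 (minus), chr2:11642542-11642841 (plus) and chrX:101268206-101268505 (minus), and Il2rb is not shown because that set held no window for it. Capitals mark GGAAA, the core read by NFAT factors, an NF-kB form (GGGA and CC with 4 free bases between them) and TATAAA, the TATA box, on either strand.
Il2: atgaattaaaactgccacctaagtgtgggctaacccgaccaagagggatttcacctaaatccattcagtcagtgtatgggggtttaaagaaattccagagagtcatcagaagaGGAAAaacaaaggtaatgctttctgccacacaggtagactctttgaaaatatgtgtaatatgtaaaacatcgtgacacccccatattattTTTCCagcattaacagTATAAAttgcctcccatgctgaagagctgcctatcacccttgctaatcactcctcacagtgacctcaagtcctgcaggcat
Il2ra: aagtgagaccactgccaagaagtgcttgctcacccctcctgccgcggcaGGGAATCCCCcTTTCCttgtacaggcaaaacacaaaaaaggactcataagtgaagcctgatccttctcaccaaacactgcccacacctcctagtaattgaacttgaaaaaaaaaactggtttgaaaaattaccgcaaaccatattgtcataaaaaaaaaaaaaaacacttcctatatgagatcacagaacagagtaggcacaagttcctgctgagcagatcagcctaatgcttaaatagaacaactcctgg
Il2rg: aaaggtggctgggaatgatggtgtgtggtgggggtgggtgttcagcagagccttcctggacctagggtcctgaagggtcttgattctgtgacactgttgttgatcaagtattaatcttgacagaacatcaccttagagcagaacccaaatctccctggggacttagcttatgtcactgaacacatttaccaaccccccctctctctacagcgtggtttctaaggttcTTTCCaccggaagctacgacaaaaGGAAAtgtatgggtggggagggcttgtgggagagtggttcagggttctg

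The NFAT core stood 2 times in the Il2 window, with first bases at -137 and -47 from the start, and the TATA box at -31. In Il2ra the NF-kB form began at -201 and the NFAT core at -190, side by side without overlap. Il2rg had the NFAT core at -23 and at 2, and neither the NF-kB form nor the TATA box. The NFAT core is common: 61.3% of 32851 promoter windows of the same length held it, against 20.7% for the NF-kB form and 13.6% for the TATA box. A T-box core (GGTGTGA, in 3.98% of windows) and STAT spacings (TTCNNNGAA in 8.3% and the longer spacing known for STAT6 in 6.95%), searched on both strands, were in none of the 3 windows, which says only that these letters are not in these 300 bases.

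The libraries answered to their labels. Tbx21 stood at 1.44 and 1.54 FPKM in T-bet-null, 102 and 92.1 in STAT6-null, 2.49 and 2.09 in double-null and 30.8 and 31.6 in WT libraries, where FPKM is the number of fragments scaled to transcript length and library size. Stat6 stood at 88.8 and 89.8 in T-bet-null, 31.6 and 29.0 in STAT6-null, 29.6 and 26.9 in double-null and 89.9 and 90.9 FPKM in WT libraries. Pearson r of log2(FPKM + 1) between libraries was 0.9971 to 0.9979 within genotypes, 0.9865 to 0.9912 between mutants and 0.9492 to 0.9642 between mutants and WT, so both WT libraries stood apart from all mutants. All 7 helper T cell markers followed (Cd3d, Cd3e, Cd3g, Cd4, Cd5, Cd28 and Cd44) were measured, with a summed level of 1373 to 1393 FPKM in T-bet-null, 1556 to 1557 in STAT6-null, 1308 to 1382 in double-null and 1724 to 1749 in WT libraries. They went both ways: Cd44 was called higher in all 3 mutants (log2 0.72, 0.42 and 0.50), Cd3d, Cd3g, Cd4 and Cd28 were called lower in all 3, Cd3e was not called in STAT6-null cells, and Cd5 was called lower in T-bet-null cells only. Markers of other cells differed in several directions. The 2 erythroid genes measured of 8 summed to 7.36 to 7.48 FPKM in T-bet-null, 2.65 to 6.53 in STAT6-null, 2.63 to 4.15 in double-null and 224 to 442 in WT libraries. The 4 myeloid and dendritic genes measured of 10 summed to 54.5 to 56.2 FPKM in T-bet-null, 73.3 to 75.1 in STAT6-null, 52.5 to 62.5 in double-null and 123 to 124 in WT libraries, and most of each sum was Ctss, at 105 and 109.9 FPKM in WT. Ctss and Xcr1 were called lower in all 3 mutants. Lyz2 was called lower in T-bet-null cells but not in the others (means of 3.04 FPKM for T-bet-null, 13.3 for STAT6-null, 8.27 for double-null and 10.04 for WT), and Cd14 stayed under 1 FPKM. Kit, the gene measured of 6 for mast cells and basophils, went another way, at 8.11 to 8.67 FPKM in T-bet-null, 32.5 to 34.0 in STAT6-null, 56.7 to 62.9 in double-null and 18.1 to 18.6 in WT libraries. The 6 B cell genes measured of 8 summed to between 2.15 and 8.09 FPKM, the CD8 T cell gene Cd8b1 lay between 3.02 and 5.60 FPKM and the NK cell gene Klrd1 between 0.152 and 0.475 FPKM over all libraries. The part of these cells in the differences from WT was not tested, and in bulk RNA fewer cells of a type and less RNA per cell cannot be told apart.

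Il2 was among the most abundant transcripts of these cells and was higher in every mutant library than in either WT library. It was highest where both factors were missing. The levels were 4682 and 4598 FPKM in T-bet-null, 4141 and 4306 in STAT6-null, 6133 and 5044 in double-null and 2741 and 2911 in WT libraries. No mutant library overlapped WT, and the double-null libraries differed most from each other. How many of all genes part in this way was not counted, for Il2 or for the genes below. By rank, Il2 was the third gene in both T-bet-null libraries, the fifth in both STAT6-null libraries, 2 and 3 in the double-null and 12 and 10 in the WT libraries.

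Il2 averaged 4640.2 ± 59.5 FPKM in T-bet-null and 2826 ± 121 in WT cells (SD, n = 2 each), a log2 difference of 0.72 ± 0.098 (SE; limma with Benjamini-Hochberg adjustment over 10281 genes, adjusted p = 0.000187). STAT6-null cells averaged 4224 ± 117 FPKM, a log2 difference to WT of 0.58 (limma, adjusted p = 0.000631). Double-null cells averaged 5588 ± 771 FPKM, 1.98 times the WT mean, with a log2 difference of 0.98 (limma, adjusted p = 2.11e-05). Calls were very common in these comparisons. Against WT, 70.6% of all tested genes passed in T-bet-null cells, 71.0% in STAT6-null cells and 73.0% in double-null cells, so a call alone says little about a gene and its size matters more. The absolute difference of Il2 was larger than that of 79.6% of genes for T-bet loss, 68% for STAT6 loss and 86.3% for the loss of both.

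**Figure D1:**
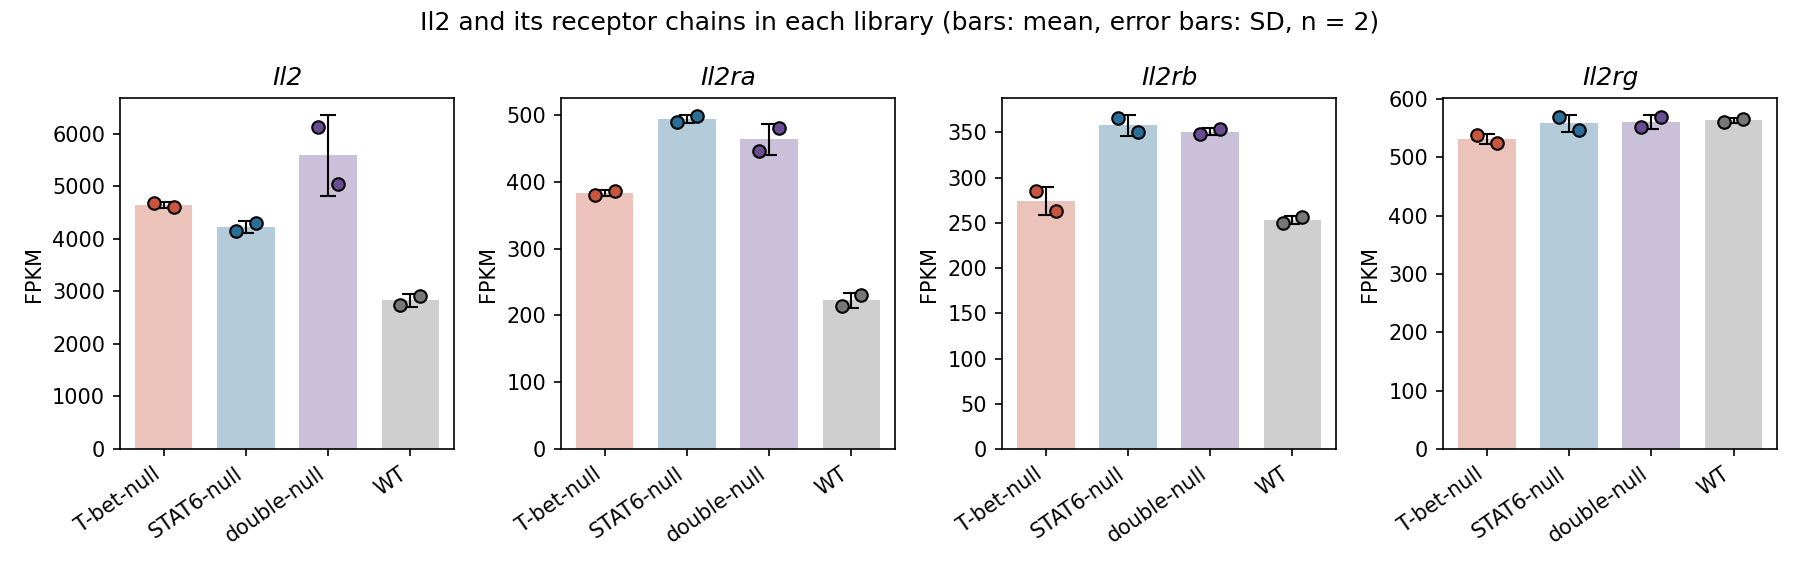
FPKM of Il2, Il2ra, Il2rb and Il2rg in each of the 8 libraries (points) with the mean and SD of each genotype (bars and error bars, n = 2). Il2 and Il2ra lay above both WT libraries in all 6 mutant libraries, Il2rb lay clearly above WT where STAT6 was lost, and Il2rg lay between 525 and 569.5 FPKM throughout.

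Within the mutants the order of Il2 was double-null, T-bet-null, STAT6-null, and only part of that order held against the spread. Il2 was higher in double-null than in STAT6-null cells by 0.40 ± 0.098 (log2 ± SE, limma, adjusted p = 0.0231), a comparison in which 19.9% of genes passed. That call was lost when either STAT6-null replicate was left out (adjusted p = 0.145 without replicate 1 and 0.0909 without replicate 2), and also without double-null replicate 1 (log2 difference 0.26, adjusted p = 0.0692). Double-null minus T-bet-null gave 0.26 (limma, 95% interval 0.04 to 0.48, adjusted p = 0.0719), where 32.6% of genes passed, and without double-null replicate 2 it passed at 0.40 (adjusted p = 0.0153). STAT6-null minus T-bet-null gave -0.14 (95% interval -0.36 to 0.09, limma, adjusted p = 0.332), where 27.2% of genes passed. With quantile normalization that difference was -0.31 (adjusted p = 0.0071).

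Il2ra, the high-affinity chain, was also higher in all 3 mutants. Its largest mean was in STAT6-null cells, but the difference from double-null cells was not called. Its levels were 379.8 and 387 FPKM in T-bet-null, 489 and 499 in STAT6-null, 447 and 480.4 in double-null and 215 and 231 in WT libraries. No library of one genotype overlapped another. Such separation was not counted over all genes, of which 70.6% to 73.0% were called against WT. The STAT6-null and double-null libraries were the closest neighbours.

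Against WT, Il2ra rose 1.72 times in T-bet-null cells (383 ± 4.79 against 223 ± 11.4 FPKM, SD, n = 2 each; log2 difference 0.78 ± 0.061 SE, limma, adjusted p = 6.16e-06). It rose 2.22 times in STAT6-null cells, to 494 ± 6.51 FPKM (log2 difference 1.15, limma, adjusted p = 6.93e-07), a difference larger than that of 93.1% of genes. In double-null cells it rose 2.08 times, to 463 ± 23.9 FPKM (log2 difference 1.05, limma, adjusted p = 7.37e-07). Double-null and STAT6-null cells differed by -0.09 (log2, 95% interval -0.23 to 0.05, limma, adjusted p = 0.32). STAT6-null cells exceeded T-bet-null cells by 0.37 (limma, adjusted p = 0.00262) and double-null cells exceeded T-bet-null cells by 0.27 (limma, adjusted p = 0.0102). The last call was lost when either T-bet-null replicate was left out (adjusted p = 0.0713 without replicate 1 and 0.0579 without replicate 2), when double-null replicate 2 was left out (0.0522) and under quantile normalization (0.15, adjusted p = 0.0799).

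Il2rb, the signalling chain shared with the IL-15 receptor, was higher in both genotypes that lack STAT6. It stood at 285 and 263 FPKM in T-bet-null, 366 and 349.9 in STAT6-null, 348 and 354 in double-null and 250.2 and 256 in WT libraries. All 4 libraries without STAT6 lay above all 4 with STAT6, which was not counted over all genes either. T-bet-null and WT libraries were close, the lower T-bet-null library being 263 FPKM and the higher WT library 256.

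Il2rb averaged 358 ± 11.5 FPKM in STAT6-null and 253 ± 4.39 in WT cells (SD, n = 2 each), a log2 difference of 0.50 ± 0.059 (SE, limma, adjusted p = 6.72e-05). Double-null cells averaged 351 ± 4.12 FPKM, a log2 difference to WT of 0.47 (limma, adjusted p = 8.66e-05). By size these differences were nearer the middle of all genes. The absolute difference of Il2rb was larger than that of 61.4% of genes for STAT6 loss and 55.5% for the loss of both. In T-bet-null cells the mean was 274 ± 15.8 FPKM and the log2 difference 0.11 (95% interval -0.02 to 0.24, limma, adjusted p = 0.115), and that difference passed with quantile normalization (0.17, adjusted p = 0.0241). Where T-bet was absent, STAT6 loss still went with more Il2rb: double-null minus T-bet-null gave 0.36 (limma, adjusted p = 0.00257). Where STAT6 was absent, double-null minus STAT6-null gave -0.03 (95% interval -0.16 to 0.10, limma, adjusted p = 0.772). STAT6-null cells exceeded T-bet-null cells by 0.39 (limma, adjusted p = 0.00168).

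Il2rg, the chain common to the family, had the highest level of the receptor genes in each library and showed no difference past the threshold. The values were 538 and 525 FPKM in T-bet-null, 569 and 548 in STAT6-null, 552 and 569.5 in double-null and 561 and 567 in WT libraries. The STAT6-null and double-null libraries overlapped WT, and both T-bet-null libraries lay below the other 6. T-bet-null minus WT gave -0.08 (log2, 95% interval -0.21 to 0.04, limma, adjusted p = 0.187), STAT6-null minus WT -0.01 (-0.14 to 0.11, adjusted p = 0.826) and double-null minus WT -0.01 (-0.13 to 0.12, adjusted p = 0.906). These intervals leave room for changes of Il2rg of at most 0.21 on the log2 scale against WT. With quantile normalization double-null minus WT was -0.13 (adjusted p = 0.0498).

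**Figure D2:**
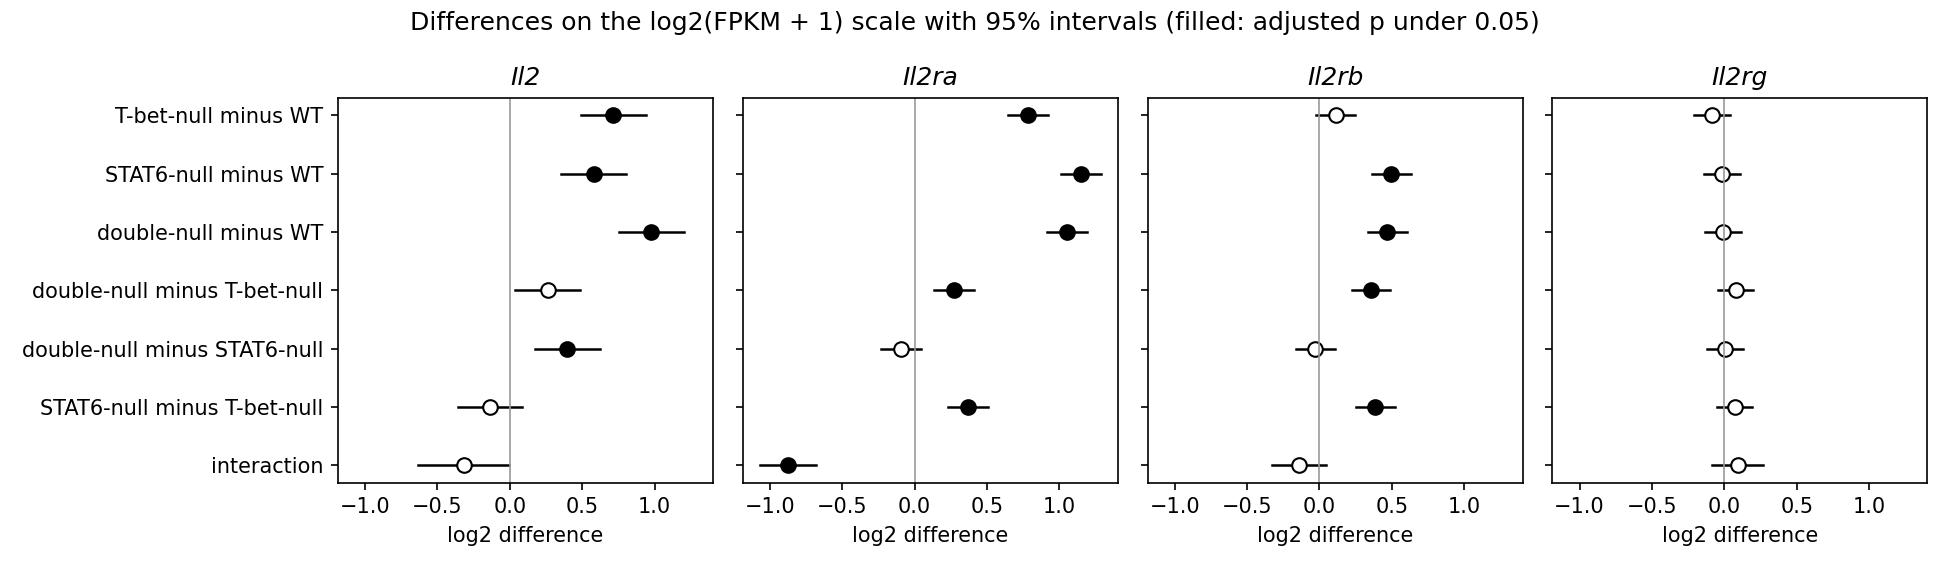
Log2 differences of each gene (points) with 95% intervals (lines) from the limma fit on log2(FPKM + 1), for 6 pairs of genotypes and the interaction, filled where the adjusted p was under 0.05. For Il2ra and Il2rb the double-null minus STAT6-null interval spans 0, and the interaction was called for Il2ra alone of the 4 genes, at -0.87.

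Whether the losses added up was read from the interaction, which takes the double-null minus T-bet-null difference and subtracts the STAT6-null minus WT difference. It passed for 57.3% of all tested genes. Both WT libraries enter it and stood apart from all mutants. Anything else that set the WT libraries apart thus enters it too and cannot be told apart from genotype. For Il2ra it was -0.87 ± 0.086 (log2 ± SE, limma, adjusted p = 7.34e-05): STAT6 loss went with a log2 difference of 0.27 without T-bet and 1.15 with it. The single differences of Il2ra summed to 1.93, a 3.81-fold level, while the double-null cells stood at 1.05, a 2.08-fold level. For Il2 the single differences summed to 1.30 against 0.98 in double-null cells, and the interaction was -0.32 (95% interval -0.63 to -0.003, limma, adjusted p = 0.0776). The Il2 interaction passed without double-null replicate 1 (-0.46, adjusted p = 0.0077), and under quantile normalization it was -0.51 (adjusted p = 0.00121). Il2rb gave -0.14 (-0.33 to 0.05, limma, adjusted p = 0.174) and Il2rg 0.09 (-0.08 to 0.27, limma, adjusted p = 0.331).

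Because FPKM is scaled to transcript length, the levels of the chains can be set side by side. Il2ra was 1.33 and 1.47 times the level of Il2rb in T-bet-null, 1.34 and 1.42 times in STAT6-null, 1.28 and 1.36 times in double-null and 0.858 and 0.9 times in WT libraries. Il2ra thus exceeded Il2rb in all 6 mutant libraries and lay below it in both WT libraries. Whether such a ratio lies above or below 1 depends on the transcript lengths used for scaling. How many other pairs of genes part from WT in this way was not counted. Of single genes, 70.6% to 73.0% were called against WT. The log2 ratio of Il2ra to Il2rb was higher than in WT by 0.67 in T-bet-null cells, 0.65 in STAT6-null cells and 0.59 in double-null cells, against an SD between replicates of 0.053 to 0.080. Il2ra made up 31.6% and 32.9% of the summed FPKM of the chains in T-bet-null, 34.4% and 35.7% in STAT6-null, 33.2% and 34.2% in double-null and 20.9% and 21.9% in WT libraries. The share of Il2rb lay between 22.4% and 25.8% in all libraries. That of Il2rg was 44.7% in both T-bet-null libraries, 39.9% and 39.2% in STAT6-null, 41.0% and 40.6% in double-null and 54.7% and 53.8% in WT libraries. With 2 libraries against 2, no permutation of the libraries can reach a p under 0.05, so these ratios are given as a description.

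**Figure D3:**
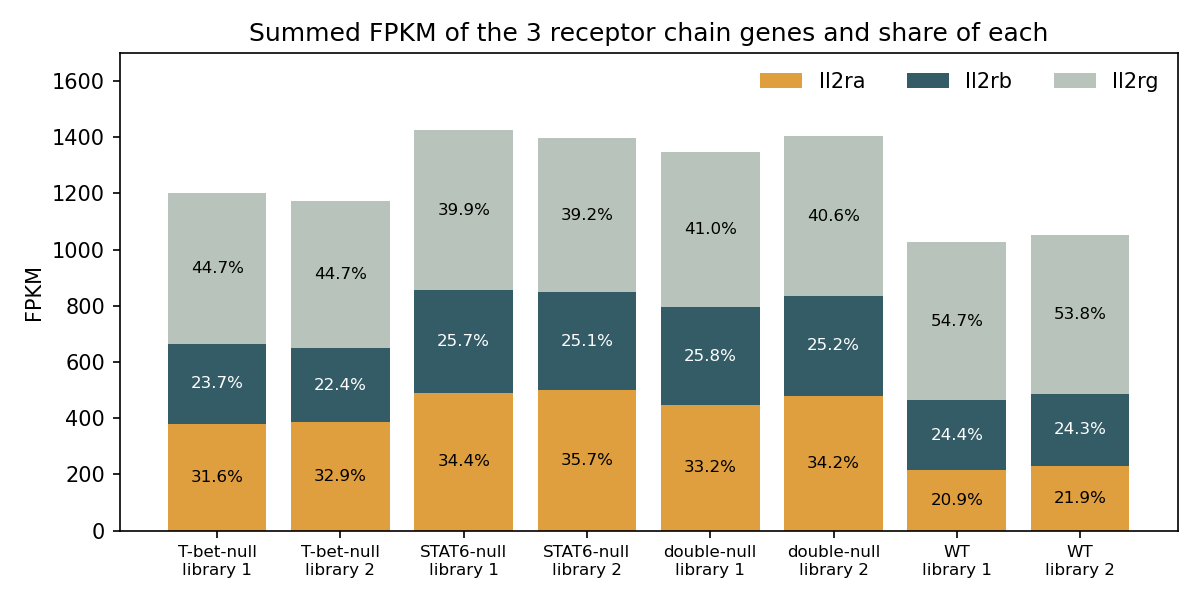
Summed FPKM of Il2ra, Il2rb and Il2rg in each library (bar height), divided by gene, with each gene's percentage of the sum. The sum was 1175 to 1424 FPKM in the mutant libraries and 1025 and 1054 in WT, and the Il2ra share was 31.6% to 35.7% in the mutants and 20.9% and 21.9% in WT.

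Factors that bind the Il2 promoter and switch it on were mostly lower in the mutants, although Il2 itself was higher. Of 14 such genes, 1 was called higher and 10 lower in T-bet-null cells, 1 and 9 in STAT6-null cells, and 2 and 11 in double-null cells, with medians of -0.52, -0.46 and -0.42 (log2). Among all tested genes, 34.2% were higher and 36.3% lower in T-bet-null, 34.9% and 36.1% in STAT6-null, and 36.3% and 36.7% in double-null cells, with medians of -0.02, -0.01 and -0.005. Between mutants few of the 14 were called. Double-null cells had 2 higher and 1 lower against T-bet-null, and 2 and 1 against STAT6-null cells. STAT6-null minus T-bet-null gave 3 and 1. The comparisons with WT share 2 libraries that stood apart from all mutants. Anything else that set those apart cannot be told apart from genotype, here and in the lists below. In what follows, 3 values after a gene are its log2 differences to WT, first for loss of T-bet, then of STAT6, then of both. They are differences of log2(FPKM + 1), so for genes at a few FPKM they are smaller than the log2 ratio of the levels. The AP-1 gene Fosb fell most, with differences of -1.78, -2.01 and -1.95, and stood at 274 and 273 FPKM in T-bet-null, 250.3 and 219 in STAT6-null, 247 and 239 in double-null and 1002 and 888 in WT libraries. Jund, another AP-1 subunit, fell (log2 -1.28, -1.27 and -1.42), and Nfatc2, an NFAT factor (-0.92, -0.81 and -0.86). Junb differed by -0.97, -0.25 and -0.39, Jun by -0.46, -0.87 and -0.40, and Fos by -0.91, -0.80 and -1.02, each called lower throughout. The Junb call in STAT6-null cells was lost with quantile normalization (-0.07), without WT replicate 1 (-0.23) and without STAT6-null replicate 2 (-0.17). Nfkb1, an NF-kB subunit, was the gene called higher in all 3 mutants (0.94, 0.78 and 0.88), at 692 and 689.6 FPKM in T-bet-null, 621 and 614 in STAT6-null, 692 and 630.2 in double-null and 346 and 373 in WT libraries. Rela, its partner, was called only in double-null cells (0.33) and gave 0.07 and 0.12 in T-bet-null and STAT6-null cells.

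Repressors of Il2 transcription went both ways: of 7 genes, 4 were higher and 3 lower in T-bet-null, 3 and 3 in STAT6-null, and 3 and 4 in double-null cells, with medians of 0.19, 0.07 and -0.30. In either direction, 100%, 85.7% and 100% of this short list were called, against 70.6%, 71.0% and 73.0% of all tested genes. Ikzf3 (Aiolos) rose by 0.79, 0.90 and 1.23, and Ikzf1 (Ikaros) by 0.49, 0.38 and 0.40. Prdm1 (Blimp-1), itself induced by IL-2, rose by 0.19, 1.42 and 0.81, but the call for T-bet loss was lost when WT replicate 1 (0.11) or either T-bet-null replicate (0.18 and 0.19) was left out and with quantile normalization (0.08). Tob1, a brake on T cell activation, fell (log2 -0.77, -0.95 and -1.07), and Zeb1 (-0.36, -0.53 and -0.81). Ikzf2 (Helios) rose by 0.59 in T-bet-null cells, fell by 0.30 in double-null cells and gave 0.07 in STAT6-null cells. Without WT replicate 2 the Ikzf2 call was lost for double-null (-0.15) and gained for STAT6-null (0.23), and without double-null replicate 2 the first was lost as well (-0.27). Of 8 genes whose proteins act on the stability of Il2 mRNA, 3 were higher and 4 lower in T-bet-null, 1 and 3 in STAT6-null, and 2 and 4 in double-null cells. That is 87.5%, 50% and 75% called, against the same shares of all genes. The ARE-binding Zfp36l1 (-0.62, -0.63 and -0.49) and Zfp36l2 (-0.51, -0.55 and -0.49) and the RNase gene Zc3h12a (Regnase-1; -0.72, -0.25 and -0.39) were lower in all 3 mutants, although the Zc3h12a call in STAT6-null cells was lost without WT replicate 1 (-0.19) or STAT6-null replicate 2 (-0.16). Rc3h1 (Roquin-1) was higher (0.62, 0.46 and 0.50). Zfp36 (tristetraprolin) fell in T-bet-null (-0.64) and double-null cells (-0.31) and gave 0.09 in STAT6-null cells. The double-null call of Zfp36 was lost without WT replicate 1 (-0.28) or double-null replicate 2 (-0.26), and without STAT6-null replicate 2 its STAT6-null value passed at 0.22. In this list the 3 higher genes in T-bet-null cells were 1 without T-bet-null replicate 2, and the 1 in STAT6-null cells was 2 without WT replicate 1 or STAT6-null replicate 2.

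Downstream of the receptor, 17 of 18 relay genes were tested, and 3 were higher and 8 lower in T-bet-null, 4 and 6 in STAT6-null, and 5 and 8 in double-null cells, with medians of -0.07, -0.01 and -0.11. The share called, 64.7%, 58.8% and 76.5%, was near that of all tested genes (70.6%, 71.0% and 73.0%). Stat5a, which with Stat5b carries the IL-2 signal to the nucleus, rose by 1.05, 1.15 and 1.12. It stood at 111 and 106 FPKM in T-bet-null, 121 and 112 in STAT6-null, 111 and 117 in double-null and 53.1 and 50.8 in WT libraries, with no overlap with WT. Stat5b did not pass (-0.04, -0.01 and -0.05). The receptor kinases Jak1 (-0.28, -0.54 and -0.53) and Jak3 (-0.29, -0.26 and -0.28) fell, as did Pik3r1, a regulatory subunit of PI3 kinase (-1.19, -1.46 and -1.55), and Mapk3, encoding ERK1 (-0.63, -0.77 and -0.47). Pik3cd, the catalytic subunit of leukocyte PI3 kinase, fell (-0.74 and -0.39) in T-bet-null and double-null cells and gave -0.01 in STAT6-null cells. Akt2 rose by 0.24, 0.72 and 0.64, and Stat3 rose in STAT6-null (0.74) and double-null cells (0.44) and gave 0.00 in T-bet-null cells.

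Of the 7 brakes on IL-2 signalling, 2 were higher and 4 lower in T-bet-null, 3 and 2 in STAT6-null, and 4 and 2 in double-null cells, with medians of -0.33, 0.09 and 0.21. The share called was 85.7%, 71.4% and 85.7%, against 70.6%, 71.0% and 73.0% of all tested genes. Cish and Socs2, STAT5-induced inhibitors of the receptor, were called higher in all 3 mutants. Cish differed by 0.67, 0.53 and 0.21, and Socs2 by 1.31, 2.28 and 1.61. The double-null call of Cish was lost without either WT replicate (0.22 and 0.21) and without double-null replicate 1 (0.18). Socs2 stood at 53.6 and 50.8 FPKM in T-bet-null, 102 and 106 in STAT6-null, 62.4 and 67.3 in double-null and 20.4 and 20.7 in WT libraries. Socs2 was highest in STAT6-null cells, and double-null minus STAT6-null gave -0.67 (limma, adjusted p = 0.000136). Il2ra also had its highest mean there, but its difference from double-null cells was not called. Socs3 fell in T-bet-null cells (-0.44) and rose in STAT6-null (0.79) and double-null cells (0.61). The phosphatase genes Ptpn6 (-1.49, -1.05 and -1.33) and Dusp5 (-0.50, -0.81 and -1.15) fell.

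Genes that IL-2 and STAT5 induce were split. Called in either direction were 75%, 81.25% and 93.75% of them, against 70.6%, 71.0% and 73.0% of all tested genes. Of 16, 5 were higher and 7 lower in T-bet-null, 9 and 4 in STAT6-null, and 9 and 6 in double-null cells, with medians of -0.03, 0.28 and 0.24. The count of 5 was 3 without WT replicate 1 or without T-bet-null replicate 1. Gzmb, which encodes granzyme B, rose by 3.29 in STAT6-null cells and 3.40 in double-null cells and gave 0.28 in T-bet-null cells, a value that passed in the pairwise fit and when either double-null replicate was left out. The cyclin genes parted: Ccnd2 rose by 1.07, 1.05 and 1.02, and Ccnd3 fell (log2 -1.81, -1.83 and -1.91). Tnfrsf1b (-1.02, -0.55 and -1.06) and Lta (-0.87, -0.72 and -1.22) fell, and the cytokine gene Osm rose (0.48, 0.57 and 1.22). Of 7 genes that IL-2 and STAT5 repress, 3 were higher and 4 lower in each mutant, with medians of -0.84, -0.56 and -0.99. So 100% of this short list was called in each mutant, against the shares of all genes just given. Bcl6, the follicular helper factor (-1.16, -1.37 and -1.19), Tcf7 (-1.06, -1.42 and -1.30), Klf2 (-0.84, -0.89 and -1.14) and Il6ra (-0.93, -0.56 and -0.99) fell, while Il17a rose by 1.23, 1.07 and 3.28.

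**Figure D4:**
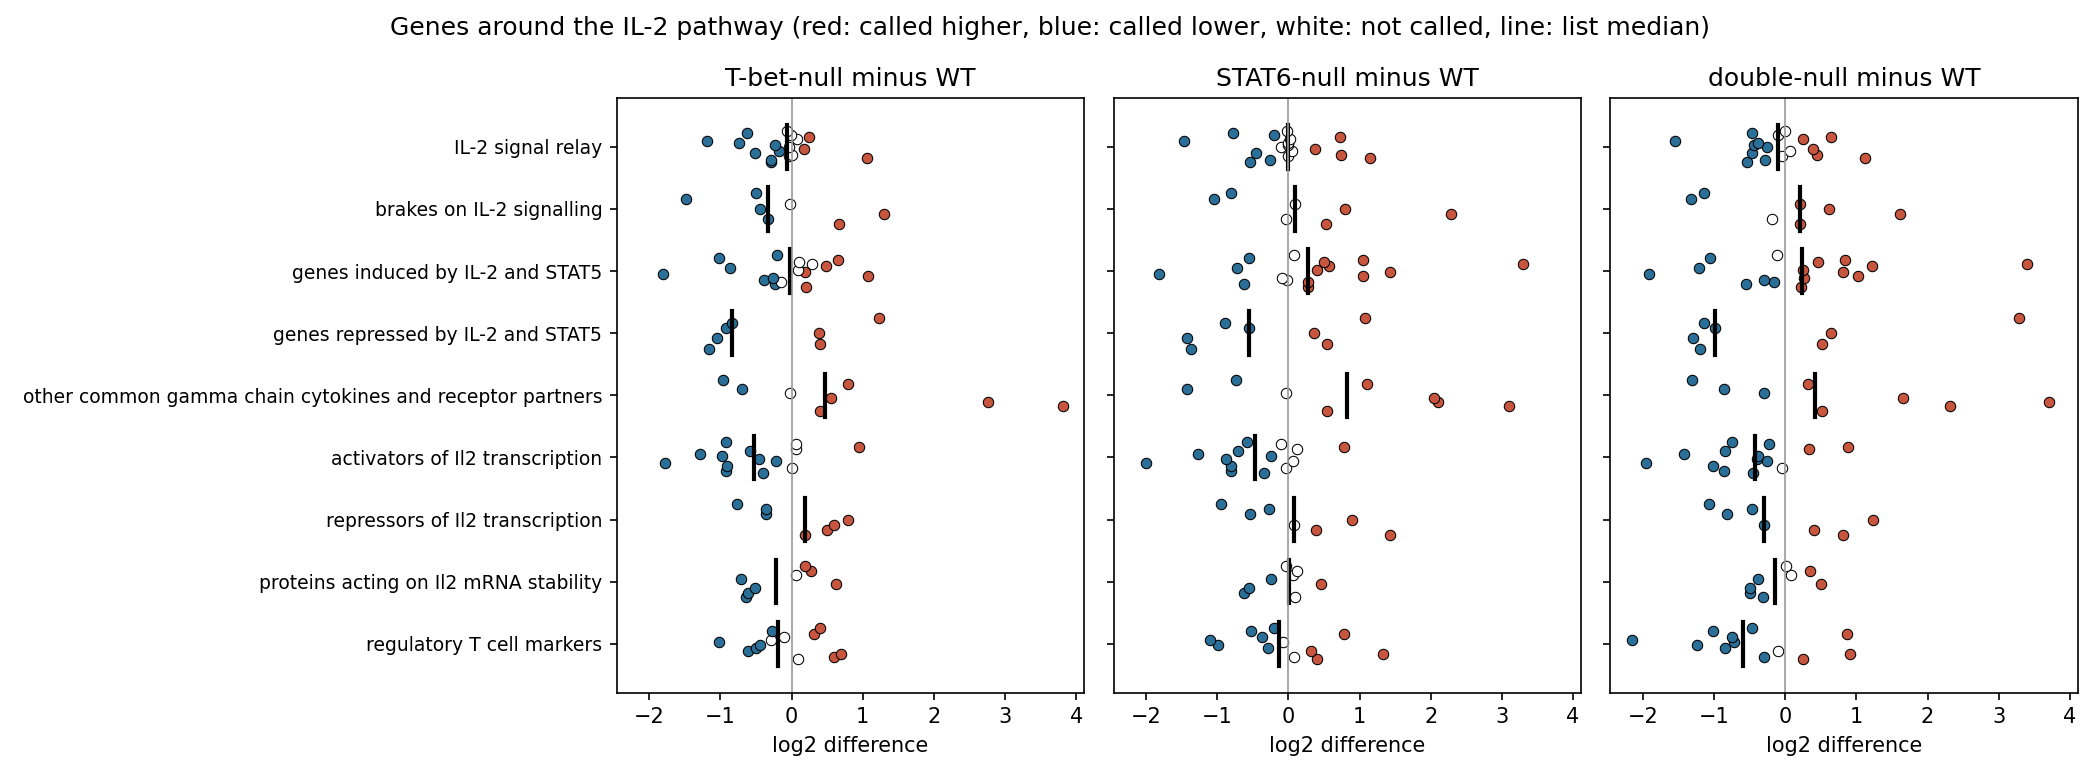
Log2 differences to WT of the tested genes of 9 lists around the IL-2 pathway, 1 point a gene, in a panel for each mutant genotype, with the list median as a line. Activators of Il2 transcription lay mostly below 0 in each panel (medians -0.52, -0.46 and -0.42), as did 4 of the 7 genes repressed by IL-2 and STAT5 (medians -0.84, -0.56 and -0.99), and every list held calls in both directions in each panel.

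The other cytokine genes of the common gamma chain family were higher in all 3 mutants, while their receptor genes went both ways. Il7 and Il15 were not analysed here, and of the remaining 8 genes 5 were higher and 2 lower in T-bet-null, 5 and 2 in STAT6-null, and 5 and 3 in double-null cells. That is 87.5%, 87.5% and 100% called, against 70.6%, 71.0% and 73.0% of all tested genes. Il4 differed by 3.81, 3.09 and 2.31, Il9 by 2.76, 2.10 and 3.71, and Il21 by 0.55, 2.05 and 1.65, all called higher. Il9 was near the floor in WT libraries, at 0.130 and 0.498 FPKM, against means of 7.86, 4.58 and 16.0 in the mutants. The sizes given for Il9 therefore depend on the 1 FPKM added before the log. Among receptor partners, Il15ra, which pairs with Il2rb and Il2rg, was higher by 0.79, 1.11 and 0.32, at 12.9 and 12.8 FPKM in T-bet-null, 16.9 and 15.5 in STAT6-null, 8.42 and 9.48 in double-null and 6.23 and 7.81 in WT libraries. Its double-null call was lost without WT replicate 1 (0.17) or double-null replicate 2 (0.24). Il7r rose by 0.40, 0.55 and 0.52. Il21r fell (log2 -0.96, -0.74 and -1.31), Il9r fell (log2 -0.70, -1.43 and -0.87), and Il4ra passed only in double-null cells (-0.30).

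Regulatory T cells carry much CD25, so their markers were read beside Il2ra. Of 12 markers tested, 4 were higher and 5 lower in T-bet-null, 4 and 6 in STAT6-null, and 3 and 8 in double-null cells, with medians of -0.19, -0.14 and -0.60. The share called was 75%, 83.3% and 91.7%, against 70.6%, 71.0% and 73.0% of all tested genes. Foxp3, the defining factor, stood at 95.6 and 91.8 FPKM in T-bet-null, 119.8 and 113 in STAT6-null, 97.4 and 113 in double-null and 85.2 and 90.6 in WT libraries. Its log2 difference was 0.09 in T-bet-null (not called), 0.40 in STAT6-null cells and 0.25 in double-null cells, beside 0.78, 1.15 and 1.05 for Il2ra. Ikzf4 (Eos) rose by 0.70, 1.33 and 0.92. Nrp1 (-0.44, -0.997 and -1.24) and Folr4 (-0.27, -0.53 and -1.01) fell in all 3, and Lrrc32, encoding the TGF-beta docking receptor GARP, fell in STAT6-null (-1.10) and double-null cells (-2.16). In T-bet-null cells Lrrc32 gave -0.29, which passed in 7 of the 17 alternatives, and Folr4 lost its call without T-bet-null replicate 2 (-0.24). Between double-null and STAT6-null cells, where 8.63% of all genes were lower, 10 of the 12 markers were lower and 0 higher, with Foxp3 at -0.15 (not called) and Il2ra at -0.09. Ctla4, Capg, Ikzf2 and Itgae, also on this list, are expressed by activated helper T cells as well. Capg was 312 and 299 FPKM in T-bet-null, 415 and 422 in STAT6-null, 444 and 446 in double-null and 253 and 235 in WT libraries. Ctla4 was 1786 and 1810, 3405 and 3476, 2512 and 2624, and 2749 and 2773 FPKM in that order. Itgae was 39.7 and 38.7, 77.5 and 75.1, 45.4 and 51.3, and 79.4 and 81.4 FPKM. Ikzf2 is given above. The part of regulatory T cells in the differences of Il2ra was not tested. In bulk RNA a changed number of such cells and changed RNA per cell cannot be told apart.

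Other genes shared these patterns, in numbers that make each a description only. Likeness was the Pearson r of log2(FPKM + 1) over the 8 libraries, which fall into 4 pairs by genotype, among 5553 or 5554 genes whose genotype means spanned at least 0.5. The genes most like Il2 were Hnrnpab, Hccs, Det1, Tnfsf11 and Utp20 (r from 0.987 for Hnrnpab to 0.982 for Utp20), and 202 genes had r of at least 0.95. Tnfsf11, which encodes the cytokine RANKL, averaged 358 FPKM in T-bet-null cells, 316 in STAT6-null cells, 399.5 in double-null cells and 207 in WT cells. Those most like Il2ra were Alcam, Ece1, Ccr2, Stxbp5 and Tmem2 (r from 0.998 for Alcam to 0.996 for Tmem2), of 449 genes at 0.95 or more. Ccr2, a chemokine receptor, averaged 43.1, 71.6 and 58.5 FPKM in the mutants in the same order and 16.8 in WT cells. Those most like Il2rb were Plekho1, Btbd9, Thy1, Nfkbib and Slfn10-ps (r from 0.992 for Plekho1 to 0.988 for Slfn10-ps), of 89 at 0.95 or more, and Thy1 averaged 437, 743 and 744 FPKM in the mutants and 394 in WT cells. Il2rg spanned only 0.085 between genotypes, and 0 genes reached 0.95. Its lowest mean was in T-bet-null cells, a difference from WT that was not called. Its likest genes (Fam167a at r = 0.928, Trpv2, Hopx, Mpdu1 and Bhlhe40) each had their lowest mean there too. Leaving out 1 library kept 0 to 5 of the 5 names for Il2, so the names are not fixed.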

How the data were processed

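RNA-seq of 8 libraries (4 genotypes, 2 each) was read from 1 table of FPKM values, in which the authors deposited a column for each library. Cufflinks and the build mm10 are named in the submitters' processing notes, and RefSeq annotation in the name of the table. Aligner, versions and strandedness: not given in the sources used here. All 11906 lines lay above 0.1 FPKM in every library, so genes silent in any library were not analysed here. Where a symbol had several lines (43 symbols), only its most abundant line was used. Another 17 lines had date-like names.

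Depth was estimated from steps of low FPKM values in 503 genes: the libraries differed by 1.22-fold at most (0.856 to 1.04 of WT library 1), and 18 genes with 1 annotated transcript put that library near 20.1 x 10 to the 6th fragments (quartiles 18.6 and 21.2 in the same unit). At that depth the error of the 4 genes from counting alone is about 0.398% to 0.804%. FPKM values were not counts, so no count model was used.

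Tests used limma 3.58.1 (R 4.3.3), two-sided, with log2(FPKM + 1) values, with a mean per genotype, an intensity trend and 4 residual degrees of freedom, over 10281 genes with at least 1 FPKM in at least 2 libraries. P-values were adjusted over all genes tested within each of 7 comparisons and called under 0.05. The 3 comparisons with WT share the WT libraries. The labels do not tie the libraries of a genotype to separate animals, so p-values reflect only how far these samples spread, possibly for technical reasons. Genes, lists and tests were chosen with earlier results of these data known. Named from each list were the 4 called genes with the largest difference to WT, genes whose call differed between mutants, and further genes chosen after their values were seen; for likeness, the 5 genes with the highest r. Gene models are GENCODE M21 transcripts matched to RefSeq, and coordinates are RefSeq GRCm38.p6. Alternatives were other pseudocounts (0.1, 0.5), filters (none, 5 FPKM), scalings, no trend, pairwise fits, a replicate block and leaving out each library. Python 3.11.15, pandas 2.3.3 and matplotlib 3.10.9 were used.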

Additional observations from a re-analysis of the deposited data

Results flagged for a closer look

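The effect of STAT6 loss on Il2ra differed between T-bet-null and T-bet-sufficient cells, by the interaction test of the limma fit: -0.87 on the log2 scale (95% interval -1.07 to -0.68, adjusted p = 7.34e-05), a size above that of 87.9% of all tested genes, where 57.3% of genes passed. STAT6 loss went with a log2 difference of 0.27 without T-bet and 1.15 with T-bet, and T-bet loss with -0.09 without STAT6 and 0.78 with STAT6. The interaction lay between -0.97 and -0.82 under every alternative run and passed in each. Both WT libraries enter the interaction and stood apart over all genes. Pearson r was 0.9492 to 0.9642 between mutants and WT, against 0.9865 to 0.9912 between mutants. The WT libraries also stood apart in both erythroid genes measured and, among 4 myeloid and dendritic genes, in Ctss and Xcr1 but not in Lyz2 or Cd14. The part of these differences in the interaction was not tested.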

How the results depend on the processing

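Of 28 results for the 4 genes, the differences of Il2 and Il2ra from WT, those of Il2rb in STAT6-null and double-null cells and the Il2ra interaction kept direction and call under all 17 alternatives (16 for the interaction, whose pairwise fit would be the fit of all genotypes and was not run separately). Leaving out each library moved Il2 between 0.26 and 0.54 (double-null minus STAT6-null), 0.12 and 0.40 (double-null minus T-bet-null) and -0.46 and -0.18 (interaction), and Il2ra between 0.22 and 0.33 (double-null minus T-bet-null), with calls gained or lost. A genotype left with 1 library is assumed to vary like the others. Quantile normalization, which fixes the levels of the top-ranked genes, gave -0.31 (Il2, STAT6-null minus T-bet-null), -0.51 (Il2 interaction), 0.15 (Il2ra, double-null minus T-bet-null), 0.17 (Il2rb, T-bet-null minus WT) and -0.13 (Il2rg, double-null minus WT), and log2 ratios to Il2rg of 1.16 for Il2ra (double-null), 0.57 for Il2rb (STAT6-null) and 0.57 for Il2rb (double-null) relative to WT, against 1.07, 0.51 and 0.48. The cause was not tested.

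The filter of 5 FPKM, which tests fewer genes, gave 2449 lower in STAT6-null cells against WT. Leave-one-out counts ran from 770 to 1844 higher and 861 to 1641 lower (double-null minus T-bet-null, 1688 and 1663 with all libraries), 459 to 1201 and 381 to 883 (double-null minus STAT6-null, 1157 and 887), and 710 to 1401 and 733 to 1683 (STAT6-null minus T-bet-null, 1262 and 1537).

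Replicate numbers are shared across genotypes, and same-numbered deviations correlated at -0.0899 to 0.0907. Low values over all genes cannot exclude a shared day or batch that moved few genes, and the labels do not tell. With the replicate block, Il2 in double-null minus STAT6-null stayed at 0.40 (adjusted p = 0.0392), no call of the 4 genes changed, and 1030 higher and 806 lower genes passed there.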

Other observations

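Of the tested genes within 150 kb of a member, a window chosen after values were known but filled by position alone, 2 near Il2 gave 2 calls higher and 0 lower in T-bet-null cells and 1 higher and 0 lower in each of STAT6-null and double-null cells. The 5 near Il2ra gave 3 higher and 2 lower, 2 and 2, and 2 and 3 in that order of mutants, the 5 near Il2rb 1 and 3, 1 and 4, and 1 and 3, and the 5 near Il2rg 0 and 4, 1 and 4, and 1 and 4. Among all tested genes, 34.2% were higher and 36.3% lower in T-bet-null cells, 34.9% and 36.1% with STAT6 lost, and 36.3% and 36.7% with both lost. Il21 lies 96.8 kb from Il2 and rose in all 3 mutants by 0.55 with T-bet lost, 2.05 with STAT6 lost and 1.65 with both lost. Its highest level was in STAT6-null cells. Il2 had its lowest mean among the mutants there, but its STAT6-null minus T-bet-null difference was not called (-0.14, limma, adjusted p = 0.332). The other Il2 neighbour, 4932438A13Rik at 67.7 kb, rose in T-bet-null cells (0.67) and gave -0.03 and -0.11 in STAT6-null and double-null cells (not called). Around Il2ra, Il15ra at 12 kb rose by 0.79, 1.11 and 0.32 in that order and Rbm17, a splicing factor gene at 39.6 kb, by 0.48, 0.45 and 0.69, while Fbxo18 at 49.4 kb fell (log2 -0.73, -0.77 and -0.86). Around Il2rb, Rac2, a GTPase gene of blood cells at 47.5 kb, fell (log2 -1.05, -0.90 and -0.90), and C1qtnf6 at 11.7 kb fell (log2 -1.39, -0.84 and -1.32). C1qtnf6 was low, with means of 0.58, 1.31 and 0.67 FPKM in the mutants and 3.15 in WT cells. Cyth4 at 85.4 kb rose, as Il2rb did where STAT6 was lost (0.20, 0.42 and 0.28, called higher in all 3 mutants). Around Il2rg, the 4 called lower in all 3 mutants were Gm614, Foxo4, Med12 and Zmym3; Foxo4 at 3.5 kb fell (log2 -0.80, -0.95 and -1.14) and Med12 at 5.8 kb (-0.30, -0.78 and -0.83), while Il2rg itself passed in none of the 3 comparisons.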
